A study of Cynodon dactylon with 6 samples.

Results

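A set of abundant transcripts was examined in leaves of Cynodon dactylon, the bermudagrass of lawns and pastures in warm regions. After 2 h at 42 °C each stood within 1.5-fold of its control level, and at 12 h each was at least 6-fold lower than in the controls. The set was chosen by these levels. Read counts were divided by median-of-ratios size factors, which scale each library by its typical unigene, to give normalised read counts. The control level C, the 2 h level E and the 12 h level L are group means of these counts with 1 added. Members had C of at least 500, E within 1.5-fold of C in either direction and L of at most C divided by 6. The rule found 114 members among 111743 unigenes, the gene-level units of an assembly to which the reads had been assigned. Of 2985 unigenes with C of at least 500, 1824 kept their level at 2 h by this rule, and 114 of these, or 6.25%, met the late limit.

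The study grew seedlings labelled WT to an age of 10 days and took leaves from controls, labelled 0 h, and from seedlings heated at 42 °C for 2 h or for 12 h. Each of these 3 groups has 2 libraries of total leaf RNA, with 6313500 to 9326725 assigned reads per library. Whether replicates are separate plants or pools is not in the labels, so every test here measures the spread between these libraries, which may be technical. No unheated leaves from 2 h or 12 h are among the samples analysed here, so the duration of heat and the time of sampling cannot be told apart. In RNA of whole leaves, fewer cells of a type and less RNA per cell cannot be told apart either.

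As background, green leaves of grasses spend much of their messenger RNA on a limited number of very abundant transcripts. Among them are those for the small subunit of Rubisco and for chlorophyll-binding proteins of the light-harvesting antennae. In some grasses they include those for enzymes that concentrate carbon dioxide. Heat shock usually raises chaperone transcripts quickly, while messages for photosynthesis and growth can decline as stress lasts. No file used here gives a gene name or a sequence for a unigene ID, so no member is assigned a function, and no leaf marker could be checked. Members are told apart by their abundance rank in the controls, their time course, their implied length and their component, the part of the unigene ID that an assembly gives to sequences it groups together.

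The 114 members held 17.1% and 17.7% of all reads in the control libraries. They held 16.5% and 14.4% in the 2 h libraries and 2.25% and 2.2% in the 12 h libraries. The share was thus lowest in both 12 h libraries, and both 2 h libraries lay below both controls. In group means this was 17.4% ± 0.409 of the reads, then 15.4% ± 1.45, then 2.22% ± 0.0387 (SD, n = 2 each). The members lost 15.2 percentage points of the read share between control and 12 h, which was 36.9% of the 41.2 points lost by all unigenes that were lower at 12 h. Summed over the members, C was 11.7 times L, and without the 5 most abundant members the normalised counts fell 10.4-fold. The rule asked each member for a fall of at least 6-fold, so a late loss in any part of the set was fixed by the choice.

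**Figure D1:**
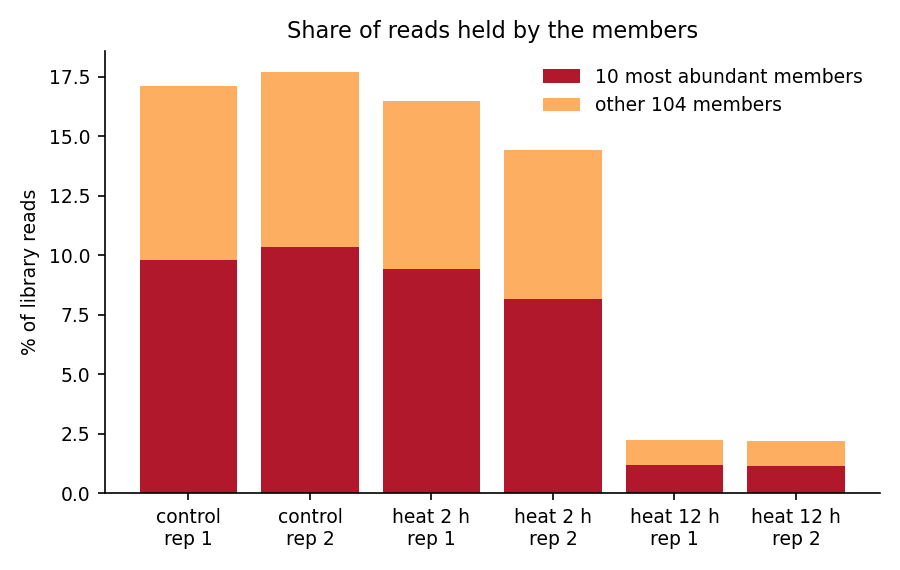
Bars show the percentage of each library's reads that fell on the 10 members most abundant in the controls (red) and on the other 104 members (orange), for each of the 6 libraries. Both parts were small at 12 h, where the 10 held 1.17% and 1.16% of the reads and the other 104 held 1.08% and 1.04%.

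The shares and ranks that follow only describe the leading members and the rest, since the rule had set a late fall for every member. The 10 most abundant members went from 10.1% ± 0.361 of the reads in the controls to 8.80% ± 0.885 at 2 h and 1.16% ± 0.00907 at 12 h, and the other 104 from 7.35% ± 0.0482 to 6.65% ± 0.563 and 1.06% ± 0.0296 (SD, n = 2 each). By mean CPM (reads scaled to library size), 31 members stood among the 100 most abundant unigenes of the controls, 27 among those of the 2 h libraries and 8 among those of the 12 h libraries. The median rank of a member was 378 in the controls, 439.5 at 2 h and 4908.5 at 12 h.

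The most abundant member, c89180_g1, was also the top unigene of the controls. Its normalised read counts were 190279 and 198201 in the controls, 168029 and 154844 at 2 h, and 24724 and 26554 at 12 h. Both 2 h values lay below both controls, and both 12 h values lay far below all others. C was 7.58 times L, and even after this fall the unigene ranked 4 among all unigenes of the 12 h libraries by CPM. Its implied length, the length at which its count, the deposited FPKM (reads scaled to length and library total) and the library total fit together, was 2888 nucleotides. Over the tested unigenes such lengths ran down to 5.96 nucleotides, so an implied length need not be the length of the assembled sequence.

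The members ranked 2 and 3 belong to the same component and had similar implied lengths of 872 and 901 nucleotides. The former had 181613 and 198212 normalised reads in the controls, 189147 and 141999 at 2 h, and 9894 and 8625 at 12 h. The latter had 107249 and 116276 in the controls, 91393 and 69640 at 2 h, and 3214 and 3001 at 12 h. For the former the 2 h values straddled the lower control, while for the latter both lay below the controls. C was 20.5 times L for the former and 36.0 times L for the latter. Per length they were the leading members, with 24673 ± 1394 and 13733 ± 745 FPKM in the controls and 1750 ± 122 and 574 ± 13.6 FPKM at 12 h (SD, n = 2).

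The member ranked 4 had 92861 and 95115 normalised reads in the controls, 75718 and 57799 at 2 h, and 3900 and 3393 at 12 h. The member ranked 5 had 64362 and 67512 in the controls, 59569 and 46548 at 2 h, and 4043 and 3820 at 12 h. In both, the 2 h libraries lay below the controls, and C was 25.8 and 16.8 times L. The members ranked 6 and 7 showed no such gap at 2 h. The former had 56496 and 61375 in the controls, 64134 and 49979 at 2 h, and 6597 and 6082 at 12 h. The latter had 57029 and 60051 in the controls, 60348 and 46476 at 2 h, and 5511 and 4862 at 12 h. Their 2 h libraries lay on either side of the controls, and C was 9.30 and 11.3 times L.

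The member ranked 8 was the only one of the 10 with a mean level above control at 2 h. It had 47911 and 49202 normalised reads in the controls, 75808 and 65094 at 2 h, and 8437 and 7536 at 12 h. E was 1.45 times C, close to the upper limit of the rule, and C was 6.08 times L, the smallest fall of any member. The member ranked 9 had 42344 and 46727 in the controls, 40757 and 32280 at 2 h, and 3606 and 3323 at 12 h. The member ranked 10 had 43210 and 43809 in the controls, 39623 and 33450 at 2 h, and 1674 and 1517 at 12 h. Both were below the controls in each 2 h library, and C was 12.9 and 27.2 times L. In each of these 10 members heat 2 h replicate 1 was the higher of the 2 h libraries.

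**Figure D2:**
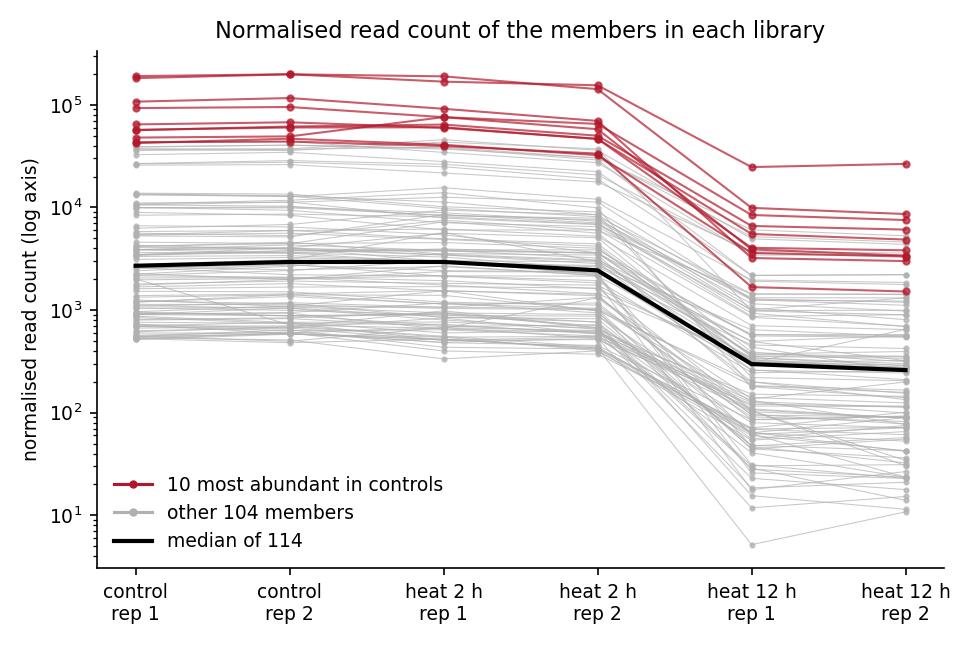
Each line joins the normalised read counts (log axis) of 1 member over the 6 libraries, red for the 10 members most abundant in the controls and grey for the other 104; the black line is the median of the 114. The median member stood at 2702 and 2943 in the controls, 2942 and 2438 at 2 h, and 298 and 260 at 12 h.

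Across all 114 members C ran from 505 to 194241, with a median of 2802 and quartiles of 990 and 9992. L had a median of 288 and ran from 9.0 to 25640. The median member kept 10.2% of its control level at 12 h (quartiles 5.77% and 13.1%), beside a median of 111% over the 25828 unigenes that passed the abundance filter. C over L, the size of the fall, lay between 6 and 8 for 37 members, between 8 and 16 for 43, between 16 and 32 for 19, between 32 and 64 for 8 and above 64 for 7. All 114 members passed the filter, and each had both 12 h libraries below the other 4 libraries, a separation found in 23% of the unigenes tested, in 57.3% of those with C of at least 500 and in 55.6% of the 1710 abundant unigenes that met the 2 h window but not the late limit. Since the rule asked for a low L, nothing is read from this or the following counts of members. In edgeR's quasi-likelihood test with Benjamini-Hochberg adjustment, 114 members were called lower at 12 h than in the controls, where 24.4% of all tested unigenes and 58.2% of those 1710 were called lower. With library totals alone in place of trimmed-mean scaling, the calls in the whole table at 12 h went from 6291 lower and 7132 higher to 3252 lower and 13555 higher. Against the 2 h libraries 113 members were called lower at 12 h, beside 22.8% of all tested.

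Across the 114 members Spearman's rho was 0.02 between C and C over L and 0.89 between C and L. These are descriptions across unigenes that share the same 6 libraries, and the limits of the rule on C and L shape both values. The deepest fall was that of c84890_g1, ranked 58 by control level. It had 2544 and 2791 normalised reads in the controls, 2133 and 1841 at 2 h, and 17.8 and 26.7 at 12 h, the last from 24 and 42 reads. Both 2 h libraries were below the controls and both 12 h libraries were near the bottom of the set, so C was 115 times L.

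Deep falls also occurred near the top of the abundance range. The member ranked 15 had 36884 and 35783 normalised reads in the controls, 43322 and 37204 at 2 h, and 981 and 899 at 12 h. It was higher in both 2 h libraries than in the controls before it fell, with C at 38.6 times L. The member ranked 22 had 13545 and 12995 in the controls, 11273 and 8470 at 2 h, and 220 and 205 at 12 h, a C of 62.2 times L. The member ranked 25 had 10813 and 11745 in the controls, 13914 and 9903 at 2 h, and 179 and 140 at 12 h, a C of 70.2 times L. The latter pair ended below the level of 500 that defined an abundant unigene, while the member ranked 15 was among the 40 of 114 that still had an L of at least 500.

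At 2 h the members were spread over the window that the rule allowed, more often below control than above it. The median E over C was 0.86 (quartiles 0.76 and 1.01). It was 0.93 among the 1710 abundant unigenes that met the same 2 h window but not the late limit, and 1.0 over all unigenes tested. E lay below 0.8 times C in 37 members, between 0.8 times C and C/0.8 in 68 and above C/0.8 in 9. Both 2 h libraries lay below both controls in 67 members, a pattern found in 32.6% of all tested unigenes and 47.0% of the 1710 non-members. They lay above both controls in 14, beside 32.7% and 26.7%. In the remaining 33 members the libraries of the groups overlapped. By edgeR's test 34 members were called lower and 6 higher at 2 h, where 14.4% and 14.3% of all tested unigenes and 23.2% and 10.6% of the non-members were called. Since the rule used this contrast, these shares are given as description only.

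The 2 h libraries differed from each other in these members. Heat 2 h replicate 1 was above replicate 2 in 104 of 114 members, with a median ratio of 1.16, and in all 56 members with C of at least 3000. The same library was the higher in 87.4% of the 119 non-members of that level and in 52.1% of all unigenes tested. Relative to C the median member stood at 0.92 in replicate 1 and 0.80 in replicate 2, and 108 members lay within the 1.5-fold window by replicate 1 alone against 97 by replicate 2 alone. How far this library difference bears on the 2 h level of the set was not tested. The median coefficient of variation between replicates was 3.91% in the controls, 11.2% at 2 h and 8.86% at 12 h. The corresponding values for the 1710 non-members were 3.95%, 5.52% and 5.85%. A further 205 abundant unigenes met the late limit but had already fallen to C/1.5 or below by 2 h. Their values were 2.99%, 9.35% and 7.60%, and heat 2 h replicate 1 was the higher in 78.5% of them.

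The 9 members with E above C/0.8 were the nearest to an early rise. In their case the median C over L was 7.83, against 9.79 for the 68 members between 0.8 times C and C/0.8 and 10.5 for the 37 below 0.8. E over C and C over L were both limited by the rule and share C, so these medians are a description. The member ranked 68 combined a high 2 h level with a deep fall. It had 1745 and 1992 normalised reads in the controls, 2701 and 2162 at 2 h, and 25.9 and 22.9 at 12 h, with E at 1.30 times C and C at 73.5 times L.

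Among abundant unigenes that kept their level at 2 h, the late fall was commoner the higher the control level. Of 1079 such unigenes with C from 500 to 1000, 2.69% were members, and of 570 with C from 1000 to 3000, 5.09%. The share was 20.9% of 129 between 3000 and 10000, 46.2% of 26 between 10000 and 30000 and 85% of the 20 above 30000. Over the same classes the median 12 h level went from 78.9% of control to 68.2%, 41.4%, 18.7% and 8.39%. C both sets the class and enters the ratio, so a chance high control value favours a fall, and the shares are a description. Of all 1824, another 384 fell to between C/6 and C/2 and 294 to between C/2 and C/1.5, 922 stayed within 1.5-fold of control at 12 h and 110 stood at 1.5 times C or more.

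**Figure D3:**
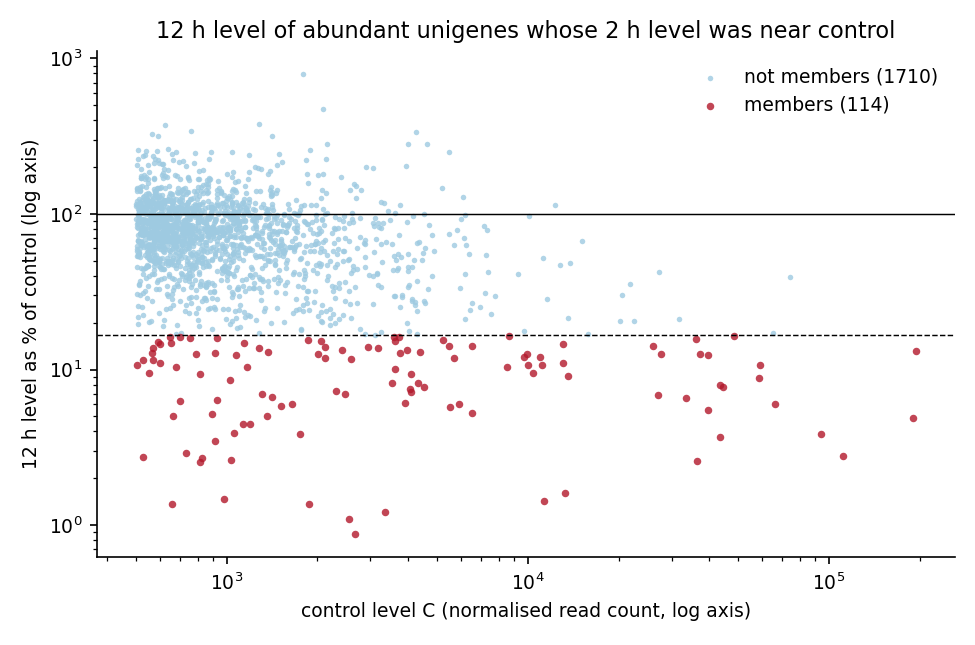
Each point is an abundant unigene whose 2 h level was within 1.5-fold of control, placed by its control level and its 12 h level as a percentage of control (both log axes); the solid line marks no change and the dashed line the limit of the rule. Members (red) make up 17 of the 20 points with a control level above 30000.

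A further 205 unigenes with C of at least 500 also met the late limit but had fallen to C/1.5 or below by 2 h, and 10 had risen to at least 1.5 times C. The 205 early fallers held 13.3% ± 0.129 of the reads in the controls, 6.30% ± 0.250 at 2 h and 1.71% ± 0.0698 at 12 h (SD, n = 2 each). The members thus held more of the control reads and lost most of their share after 2 h, which is how the 2 sets were separated. Among unigenes that met all other limits, the 3 members nearest the limit on C had 505, 525 and 528, and the nearest unigenes outside had 495, 489 and 449. Nearest the late limit, C over L was 6.08, 6.09 and 6.15 inside and 5.98, 5.95 and 5.92 outside. At the upper edge of the window E over C was 1.49, 1.49 and 1.48 inside and 1.56, 1.58 and 1.60 outside, and at the lower edge it was 0.671, 0.678 and 0.679 inside and 0.665, 0.662 and 0.661 outside. The lower edge and the late limit therefore cut through a continuous range of values.

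To see the level in a library left out of C, E and L, the rule was applied without each library in turn. The size factors were kept, so the library left out still had a part in them. The other library of its group and the other groups still made the choice. The counts therefore only describe how alike the 2 libraries of a group were, and no share over all unigenes was computed beside them. Chosen without heat 12 h replicate 1, 124 unigenes met the rule, and in that library 104 of them stood at or below C/6 and all 124 at or below C/3. Chosen without heat 12 h replicate 2, 111 met it, and in the library left out 104 stood at or below C/6 and all 111 at or below C/3. The median fall in the library left out was 9.04-fold and 11.3-fold. Of 123 chosen without heat 2 h replicate 2, 91 lay within 1.5-fold of C in that library, and of 101 chosen without heat 2 h replicate 1, 91 did. In the controls 105 of 111 and 107 of 112 met the late limit in the library left out. Of the 114 members, 79 met the rule under every one of the 6 omissions.

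Scaling decided how many unigenes met the rule. The size factors were 1.35 and 1.57 for the 8257635 and 9326725 reads of the 12 h libraries, against 1.01 and 0.696 for the 9086743 and 6313500 reads of the controls, so that a 12 h count was divided by a larger factor than a control count from a library of the same size. With library totals alone 66 unigenes met the rule, 62 of them among the 114, and the median fall of the original 114 was 6.57-fold in place of 9.79-fold. Under totals the falls of the 114 ranged from 4.06-fold to 77.1-fold, so each was still lower at 12 h. Totals also moved the median log2 ratio of L to C over all tested unigenes from 0.15 to 0.72, and the members' own median log2 ratio was -3.29 with the factors used here.

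Members had higher levels per length and shorter implied lengths than other abundant unigenes that kept their level at 2 h. Their median control level was 203 FPKM (quartiles 101 and 897), beside 53.4 FPKM for the 1710 non-members and 6.97 FPKM for all tested. At least 1000 FPKM was reached by 26 members in the controls, 26 at 2 h and 5 at 12 h. FPKM is scaled to library totals, so levels at 12 h read higher on it than on the normalised counts. The median implied length was 1327 nucleotides for members, 1896 for non-members and 1121 for all tested unigenes with a length. The gap in length varied with the level. With C from 500 to 3000 the medians were 1213 for 58 members and 1905 for 1591 non-members, and with C of at least 3000 they were 1692 for 56 members and 1841 for 119 non-members. The 205 early fallers also stood above the non-members in level and below them in length, with medians of 166 FPKM in the controls and 1512 nucleotides. Control FPKM is built from the same control counts as C, on which the rule set a limit. No test over unigenes was made of these differences. Within the set, the rho between implied length and C over L was -0.17.

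**Figure D4:**
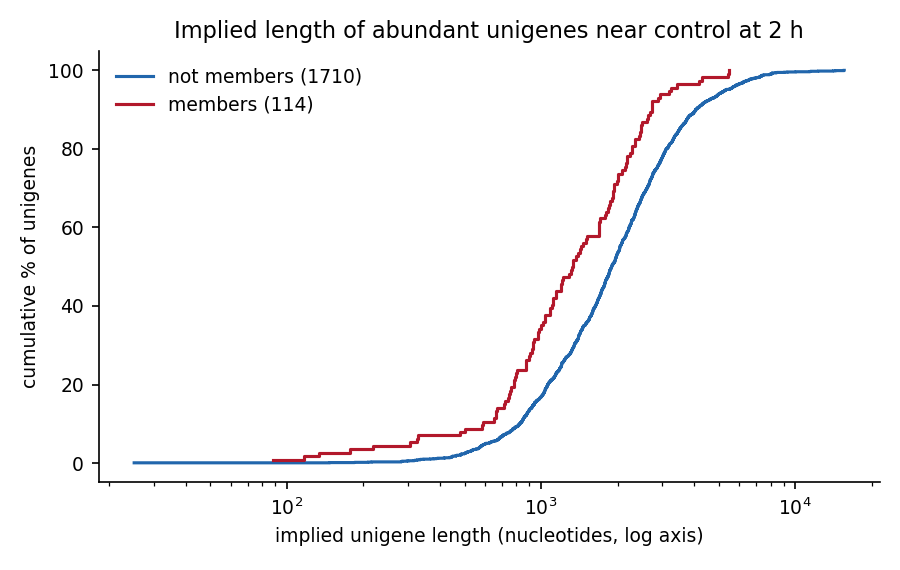
Curves give the cumulative percentage of abundant unigenes with a 2 h level near control by implied length in nucleotides (log axis), for the 114 members (red) and the 1710 non-members (blue). The curve of the members lies to the left, with medians of 1327 and 1896 nucleotides.

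Unigenes of short implied length included the least repeatable member. Of the 9 members with an implied length under 500 nucleotides, the shortest, at 88.4 nucleotides and ranked 75 by control level, had 2010 and 717 normalised reads in the controls, 663 and 1318 at 2 h, and 104 and 30.6 at 12 h. Its replicates differed by a coefficient of variation of 67.1%, 46.7% and 77.4% in the 3 groups, the highest of any member in each. Its control and 2 h libraries overlapped, and it was the member not called between 12 h and 2 h.

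The 114 members came from 109 components, 5 of which held 2 members each. Within 3 of these 5 pairs the sizes of the fall differed by less than 1.2-fold, and the widest gap was the 1.75-fold between the members ranked 2 and 3. Unigenes of the same component can share sequence and reads, so such pairs are not independent. Fractional estimated counts, which shared reads can give, were present in 5 members, or 4.39%, beside 2.92% of the 1710 non-members and 2.25% of all tested unigenes. For 78 members the component held no other unigene.

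The other unigenes of the members' components, here called partners, were not chosen by the rule, although taking the members out removes those that fell most from a high level. Of 40 partners 31 passed the abundance filter, in 21 components, and their control levels were lower than most members', with a median C of 346. At 12 h 21 of the 31 were lower than in the controls and 1 was higher by edgeR's test at an adjusted p under 0.05, beside 24.4% lower and 27.6% higher among all tested. Of the 21, which came from 14 components, 17 were lower by at least 4-fold. Unigenes of the same component can share sequence and reads, so partners are independent neither of each other nor of the members. Partners of the 1710 non-members were lower in 152 of 443 cases, or 34.3%. Those 443 leave out every abundant unigene that kept its level at 2 h, while the 31 leave out members only. The sets are therefore not alike, and their values are a description. The median log2 fold change at 12 h was -2.35 over the 31 partners, -0.22 over those 443 and 0.12 over all tested. With library totals alone the partners called higher at 12 h numbered 5.

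At 2 h 7 of the 31 partners had risen and 1 had fallen by the same test, beside 14.3% and 14.4% of all tested unigenes. Of the 7, 6 had fallen again by 12 h against 2 h and 5 stood below the controls at 12 h. Taking out the members left 3 partners that met the limits on C and L and were outside the set only by their 2 h level. Among the 7 is such a partner, with C of 510, E at 1.60 times C and C at 9.09 times L, so its 2 h rise was fixed by the choice. The count of risen partners was 2 without control replicate 1, and 4 without control replicate 2, heat 2 h replicate 1 or heat 2 h replicate 2. The count of fallen partners was 0 without control replicate 2, where 1 had an unadjusted p under 0.05, and 2 without heat 2 h replicate 2 or either 12 h library. The clearest rise at 2 h came in the component of the member ranked 5. That partner had 1412 and 1554 normalised reads in the controls, 3744 and 3353 at 2 h, and 665 and 933 at 12 h. On this scale no groups overlapped. Scaled to library totals its 12 h libraries, at 108.6 and 157.2 CPM, overlapped the controls, at 156.9 and 171.4 CPM. At 2 h the partner had risen by a log2 fold change of 1.26 ± 0.15 (edgeR, SE, adjusted p = 0.000141). At 12 h the change was -0.92 ± 0.15 (edgeR, adjusted p = 0.00051), while the member of that component had fallen 16.8-fold by 12 h.

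In some components the partner did not follow the member. The partner of c84890_g1, the member with the deepest fall, had 1038 and 1158 normalised reads in the controls, 1329 and 1173 at 2 h, and 996 and 868 at 12 h. Its 12 h libraries lay a little below the controls, at a log2 fold change of -0.27 with an SE of 0.12 (adjusted p = 0.0768 by edgeR). Scaled to library totals this direction turned, with 115 and 128 CPM in the controls and 163 and 146 CPM at 12 h. The partner of the members ranked 2 and 3 was rare, with 68.3 and 104.9 normalised reads in the controls, 44.6 and 47.6 at 2 h, and 73.4 and 57.3 at 12 h. It was the partner that had fallen at 2 h, at a log2 fold change of -0.89 with an SE of 0.28 (adjusted p = 0.0307 by edgeR), and at 12 h its change was -0.42 with an SE of 0.25 (adjusted p = 0.183 by edgeR). Scaled to library totals its 12 h libraries, at 12.0 and 9.65 CPM, overlapped the controls, at 7.59 and 11.6 CPM.

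The partner that rose at 12 h was c91389_g2, from a component whose member ranked 40. It had 3 and 5 reads in the controls, 6 and 10 at 2 h, and 133 and 129 at 12 h, or 2.97 and 7.18, 7.64 and 11.6, and 98.5 and 82.1 normalised reads. Both 12 h libraries stood far above the other 4. Its log2 fold change at 12 h against control was 4.19 with an SE of 0.40 (adjusted p = 3.09e-06 by edgeR), while C was 6.43 times L for the member and both other tested partners of the component were lower at 12 h. The differences between members and partners within a component were not tested.

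**Figure D5:**
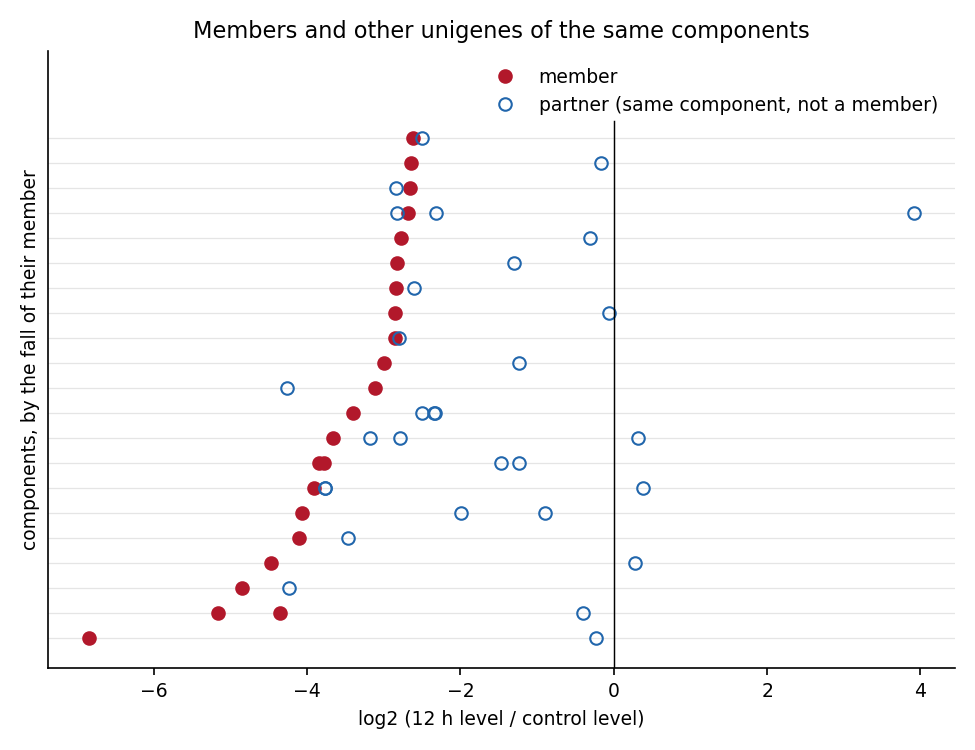
Each row is 1 of the 21 components with a tested partner, with members as filled red points and partners as open blue circles, placed by the log2 ratio of the 12 h to the control level and ordered by the member's fall. Most partners lie left of 0, and the point on the far right is c91389_g2.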

How the data were processed

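Per the labels, total RNA of leaves was sequenced by standard Illumina methods. The authors deposited estimated counts for 111743 unigenes (99.3% of values above 0 were whole) and FPKM values, which correct for unigene length and library total. The submitters' processing notes list DESeq 1.18.0, HTSeq 0.6.1, TopHat2 2.0.12 and Bowtie2 2.2.3 without their roles; assembler, counter and genome build: not given in the sources used here.

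Size factors were medians of ratios over the 18038 unigenes with at least 10 reads in every library. Members were found from unrounded counts. Counts were then rounded, kept by filterByExpr (minimum count 10, minimum total 15; 25828 unigenes), scaled by trimmed mean of M-values and fitted with edgeR 4.0.16 (R 4.3.3), glmQLFit robust, 1 mean per group, 3 residual degrees of freedom. P-values were adjusted over all unigenes tested, with a threshold of 0.05. SE is the log2 fold change over the root of edgeR's F. The fit was also run on simulated data with the same changes in both heat groups, and the outcome is not given here. Implied lengths are medians over libraries with at least 20 reads; 97.6% of members' values lay within 10% of their median. Alternatives used DESeq2 1.42.0 and limma 3.58.1. A floor of 3 reads is 0.322 CPM in the deepest library and 0.475 CPM in the shallowest.

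Members and tests were chosen with earlier results of these data known. IDs are printed for the member with the highest control level, the member with the largest fall, and up to 2 partners with the largest called rise at 12 h and at least 10 CPM in a group; only 1 met this. Other members are given by rank, ranks 1 to 10 in every library; ranks 15, 22, 25, 68 and 75 and the partners without an ID were picked after their values were seen. Planned gene lists and markers were none, since IDs carry no names.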

Additional observations from a re-analysis of the deposited data

How the results depend on the processing

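With TMM or upper-quartile factors 118 and 110 unigenes met the rule, and with counts rounded first, an alternative added after seeing the data, 114. Library totals alone gave 66, as did FPKM for the 2 h and 12 h limits; both scale to totals. For the original 114 members, the median C over L was then 6.57 with totals and 6.43 with FPKM, and the summed C over summed L 7.83 and 8.37. Other limits gave 68 (E between 0.8 times C and C/0.8), 188 (within 2 times) and 196 (L at most C/4). Leaving out 1 library gave 101 to 124 members; the median C over L of the original 114 was then 9.79 to 10.4.

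In the whole table at 2 h, limma on log2(FPKM + 1) called 1897 lower and 2070 higher, and with a pseudocount of 0.1 it called 2144 lower; leaving out 1 library gave 2129 to 3875 lower and 2099 to 4003 higher. Limma had its own filter and tested 56390 unigenes, and the fits with 1 library left out tested 27264 to 29315, in place of 25828. Counts from these fits are therefore not shares of the same number of unigenes. At 12 h against control, totals alone gave 3252 lower and 13555 higher, and limma 3252 and 13823, or 3265 and 13403 with 0.1. At 12 h against 2 h, totals alone gave 3013 lower and 12461 higher, limma 2673 and 11796, or 2756 and 11481 with 0.1, and DESeq2 gave 3669 higher.

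Partners lower at 2 h (1 by edgeR) numbered 2 with no filter and 0 under limma with either pseudocount (3 at an unadjusted p under 0.05), and 0 to 2 with 1 library left out (0 without control replicate 2, with 1 unadjusted). Partners higher at 2 h (7) numbered 1 under limma with either pseudocount (7 and 6 at an unadjusted p under 0.05 with 1 and 0.1) and 2 to 7 with 1 library left out (6 unadjusted without control replicate 1, where 2 were called). Partners higher at 12 h (1) numbered 5 with totals alone, 2 with no filter and 3 under limma with either pseudocount. Against 2 h (1) they numbered 2 with totals alone and 2 under limma with either pseudocount. The number lower at 12 h against control stayed at 21 to 22 with 1 library left out. Limma tested 33 partners, the fit with no filter 36 and the fits with 1 library left out 31 or 32, in place of 31. The cause of these shifts was not tested.

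Same-numbered replicates deviated together with r = 0.008 (control and 2 h), 0.035 (control and 12 h) and 0.285 (2 h and 12 h). The labels name no shared batch or plant and not every pair deviated together, so the numbers were not taken as pairs, although the 2 h and 12 h libraries of the same number did deviate together. With the replicate number as a block, partners lower and higher at 2 h numbered 2 and 9 in place of 1 and 7. At 12 h against control they numbered 22 and 2 in place of 21 and 1, and at 12 h against 2 h 27 and 1 in place of 24 and 1.

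With 2 libraries per group, some members rest on few reads at 12 h, down to 24 over both libraries, which limits how exactly their falls are known.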
